A study of Homo sapiens with 4 samples.

Results

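The genes described here encode proteins of the nuclear lamina and the inner nuclear membrane: the lamins LMNA, LMNB1 and LMNB2, the lamin B receptor LBR, the LEM domain proteins EMD, TMPO, LEMD2 and LEMD3, their chromatin-binding partner BANF1 and the lamin protease ZMPSTE24. They were chosen by symbol for this role, with earlier results of these data known, and all 10 were found among the 60725 genes of the count table. The poly(A) RNA of hTERT-RPE1 cells, a telomerase-immortalised line derived from human retinal pigment epithelium, was sequenced after depletion of the topoisomerase TOP2B. All cells carried the SunTag system and differed in the siRNA, so that control cells received Silencer Select Negative Control No. 2 and knockdown cells a Dharmacon ON-TARGETplus SMARTpool against TOP2B, each at 10 nM. Cells were transfected again after 48 hours and harvested 72 hours later. Each group held 2 libraries, described in the study's methods as independent biological replicates. The model is 1 cell line with 1 siRNA reagent for each condition. Effects of either reagent, the control siRNA included, cannot be told apart from that of losing TOP2B.

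The nuclear lamina is a meshwork of intermediate filament proteins under the inner nuclear membrane that gives the nucleus its stiffness and holds large parts of the heterochromatin at the nuclear edge. B-type lamins keep a farnesyl anchor and stay at the membrane, whereas lamin A loses it by proteolysis and is also found in the nuclear interior. LBR and the LEM domain proteins link the lamina to chromatin, LBR through heterochromatin protein HP1 and histone tails and the LEM domain proteins through BAF, the product of BANF1.

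The libraries held between 20310259 and 23887013 counts, so that a level of 1 CPM (reads of a gene scaled to a fixed library total, with the TMM factors of edgeR) stood for 20.3 to 23.9 reads. TOP2B itself had 3709 and 3272 counts in the control libraries and 324 and 268 in the knockdown libraries, a level of 9.58% of control and a log2 fold change of -3.38. Of 15356 genes tested with edgeR's quasi-likelihood test, 1023 were called higher and 642 lower in knockdown at an adjusted p below 0.05, and the median log2 fold change over all of them was -0.0029. Markers of differentiated retinal pigment epithelium were largely missing, with 0 counts for RPE65 and TYR in all 4 libraries, while MITF stood at 38.3 CPM and KRT8 at 1225 CPM in control. Of 8 markers of other cell types, 2 were tested, and their summed level lay between 1.14 and 2.00 CPM over the 4 libraries. Since RNA was taken from whole cultures, a larger share of cells that express a gene and more RNA of it per cell cannot be told apart.

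Among the 10 lamina genes, TMPO, LMNB1 and LMNB2 rose after TOP2B depletion and none was called lower. The rises were between 1.4-fold and 1.57-fold, and LMNA, LBR, EMD, LEMD2, LEMD3, BANF1 and ZMPSTE24 did not pass the test in either direction. All 10 passed the filter on low counts in both groups. The 3 genes called higher compare with a background of 6.66% of all tested genes called higher, and the 0 called lower with a background of 4.18%. The count called higher was 0 without control replicate 2, 1 without knockdown replicate 1 and 2 without either of the other libraries. At an unadjusted p below 0.05, ZMPSTE24 was the 1 member on the lower side, and by DESeq2's Wald test 0 members were called lower as well. A fit with the replicate number as a block did call members lower, and it is given with the other alternatives below. Both knockdown libraries lay above both control libraries for 3 members and below them for 2, against 27.7% and 26.6% of all tested genes, so that lack of overlap by itself was about as frequent as among all genes. The median log2 fold change over the members was 0.046, with 5 positive and 5 negative values.

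**Figure D1:**
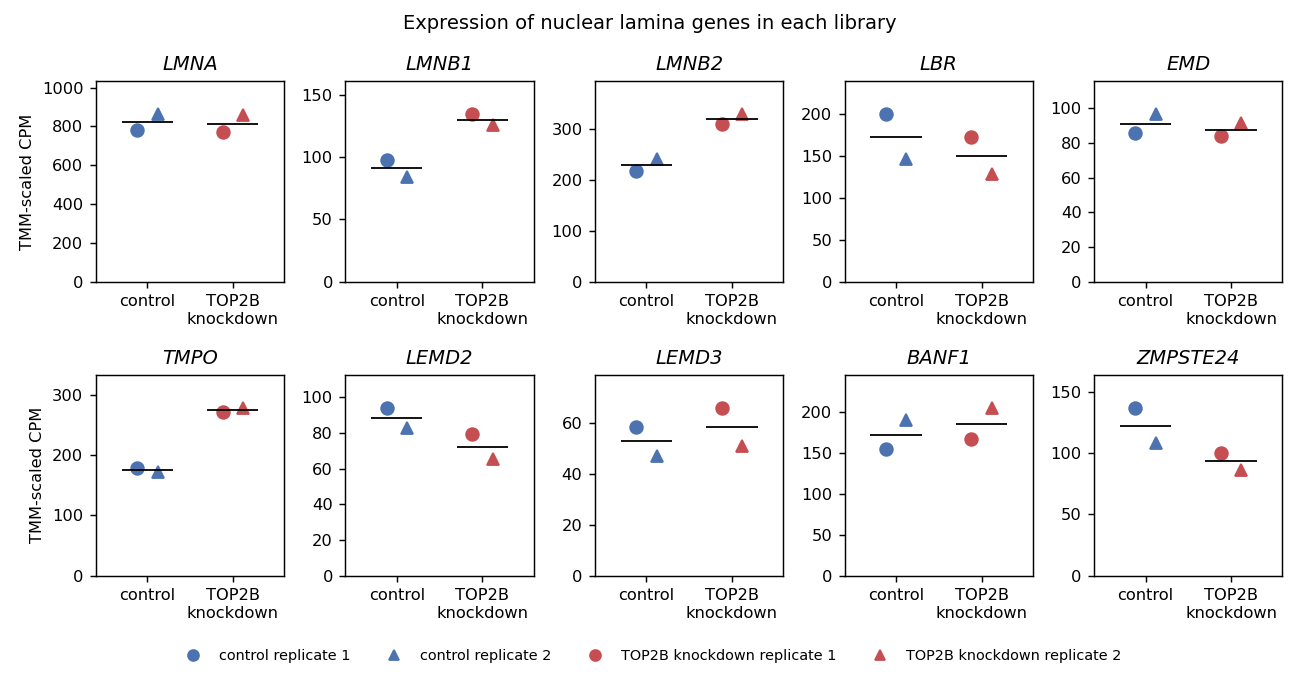
Expression of the 10 lamina genes in each library, as TMM-scaled CPM on the vertical axis, for 2 control and 2 TOP2B knockdown libraries (points, with marker shapes for the replicates). TMPO, LMNB1 and LMNB2 lie higher in both knockdown libraries, LEMD2 and ZMPSTE24 lower in both, and the groups overlap for the other 5 genes.

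The A-type lamin gene LMNA (ENSG00000160789.19, GRCh38 chr1:156082573-156140081, plus strand) encodes lamins A and C. Its level was 781.6 and 861.2 CPM in the control libraries and 768.9 and 857.2 CPM in the knockdown libraries. The groups overlapped almost entirely, and in each group replicate 2 was the higher library. The fit gave a log2 fold change of -0.02 ± 0.15 (SE) and an adjusted p of 0.966 (edgeR). Its 95% interval ran from -0.35 to 0.32, and changes within that range are compatible with these libraries.

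LMNB1 (ENSG00000113368.11, chr5:126776623-126837020, plus strand) encodes lamin B1, a permanently farnesylated lamin whose transcript is known to vary with the cell cycle and to be lost in senescent cells. Its level was 97.9 and 84.3 CPM in control and 134.0 and 125.5 CPM in knockdown, and the lowest knockdown library stood above the highest control library. The mean rose from 91.1 ± 9.59 to 129.7 ± 6.01 CPM (SD, n = 2 per group), 1.42-fold. The log2 fold change was 0.51 ± 0.13 (SE), with a 95% interval from 0.23 to 0.79 and an adjusted p of 0.0307 by edgeR's quasi-likelihood test. With control replicate 2 left out, the log2 value fitted was 0.41 (adjusted p = 0.243), and with knockdown replicate 1 left out it was 0.47 (adjusted p = 0.122), so that the call rested on these libraries while the direction did not.

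LMNB2 (ENSG00000176619.10, chr19:2427638-2456959, minus strand) encodes lamin B2, the other permanently farnesylated B-type lamin. Its level was 216.8 and 239.6 CPM in control and 309.1 and 327.6 CPM in knockdown. The gap between the groups was larger than the distance between replicates in either of them. The mean rose from 228.2 ± 16.1 to 318.4 ± 13.1 CPM (SD, n = 2 per group), 1.4-fold, with a log2 fold change of 0.48 ± 0.13 (SE, 95% interval from 0.18 to 0.78). The adjusted p of 0.0462 was close to the threshold, and the call was lost without any 1 of the 4 libraries (log2 fold change 0.41 to 0.56, adjusted p 0.13 to 0.283). It was also lost with DESeq2 size factors in edgeR, where the log2 fold change was 0.46 and the adjusted p 0.0598.

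The balance of the lamins within each library does not depend on library scaling. Relative to LMNA, the log2 count ratio of LMNB1 was -3.00 and -3.35 in control and -2.52 and -2.77 in knockdown, a difference of 0.53. For LMNB2 the log2 count ratio to LMNA was -1.85 in both control libraries and -1.31 and -1.39 in knockdown, a difference of 0.50. Neither ratio overlapped between the groups. The ratios of TMPO and EMD to LMNA did not overlap either, although that of EMD differed by only -0.04. On the CPM scale, 27.7% of all tested genes did not overlap with knockdown higher, and 26.6% with knockdown lower. With 1 library left out at a time, the LMNB1 difference lay between 0.35 (without control replicate 2) and 0.71, and the LMNB2 difference between 0.46 and 0.53. The exact two-sided permutation test over libraries gave p = 0.333 for each of both ratios, which is the smallest p that 2 against 2 libraries allow, so that this design could not reach 0.05 with such a test.

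Levels of different genes were compared per kilobase of exon, over the union of annotated exons. On this scale LMNA made up 59.9% ± 1.5 of the 3 lamin genes in control and 51.3% ± 1.7 in knockdown (SD, n = 2). The share of LMNB1 was 14.9% ± 2.2 in control and 18.4% ± 1.6 in knockdown, and that of LMNB2 was 25.1% ± 0.69 and 30.3% ± 0.07. With the length of the canonical transcript in place of the union, LMNA made up 76.2% and 69.2%, the union of LMNA exons being 8141 bases long and its canonical transcript 3178 bases. The share of LMNA was lower in both knockdown libraries under either length.

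**Figure D2:**
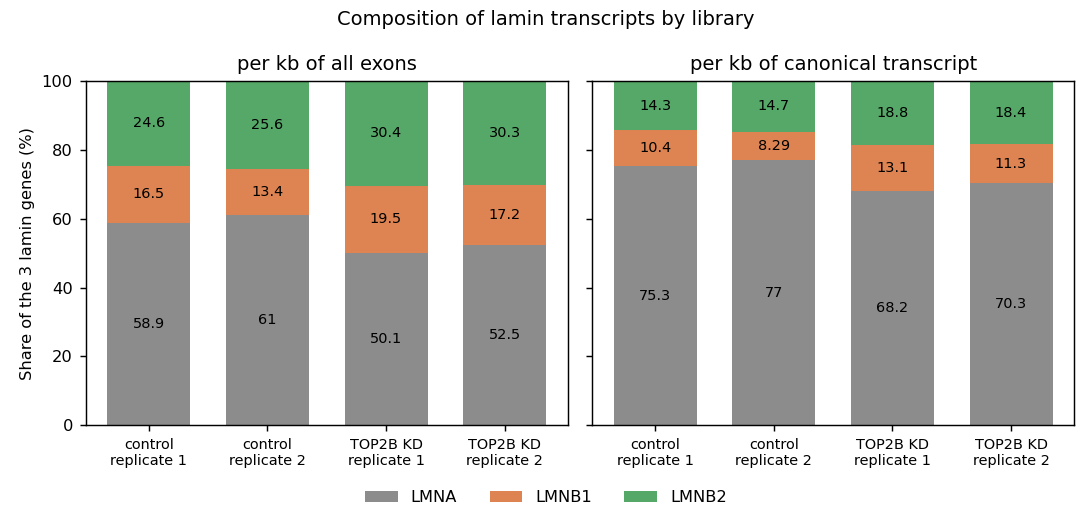
Share of each lamin gene in the summed level of LMNA, LMNB1 and LMNB2 per kilobase (vertical axis, %), as stacked bars for each library, with the union of exons in one panel and the canonical transcript in the other. LMNA made up 58.9% and 61.0% in the control libraries and 50.1% and 52.5% in the knockdown libraries over the union of exons.

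TMPO (ENSG00000120802.13, chr12:98515579-98550351, plus strand) showed the largest fold change of the 10 genes. It encodes the LAP2 proteins, among them a membrane-bound form that binds B-type lamins and a soluble form that binds lamin A in the nuclear interior, and gene counts do not separate these forms. Its level was 179.3 and 172.0 CPM in control and 271.8 and 278.1 CPM in knockdown. Replicates lay close together in both groups, and the groups were well apart. The mean rose from 175.6 ± 5.13 to 274.9 ± 4.47 CPM (SD, n = 2 per group), 1.57-fold, with a log2 fold change of 0.65 ± 0.13 (SE, 95% interval from 0.37 to 0.93, adjusted p = 0.0111, edgeR). Relative to LMNA in the same library, its log2 count ratio was -2.12 and -2.32 in control and -1.5 and -1.62 in knockdown. The call was lost without control replicate 2, where the log2 fold change was 0.62 and the adjusted p 0.0688.

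The start of TMPO overlaps an antisense gene. TMPO-AS1, a long noncoding RNA on the minus strand, shares 646 exon bases with TMPO, which are 7.6% of the exon bases of TMPO. Its counts were 149 and 126 in control and 269 and 276 in knockdown, and it was called higher with a log2 fold change of 1.16 ± 0.17 (SE, adjusted p = 0.00283, edgeR). Whether reads were counted by strand is not given in the sources used here, so that reads from the shared bases cannot be assigned to one of both genes. TMPO itself had 4293 and 3921 counts in control and 5760 and 5608 in knockdown, many times those of its antisense partner in every library.

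The sequence just upstream of the 3 genes that rose is shown because they share this direction, and because genes of the cell cycle often carry E2F sites, the CHR element or CCAAT boxes there. Each run holds the 250 bases before the transcription start that RefSeq gives on GRCh38.p14, 5′ to 3′ on the strand of the gene, with capitals for matches to the motifs searched. For TMPO it covers chr12:98515323-98515572 (plus strand), for LMNB1 chr5:126776373-126776622 (plus strand) and for LMNB2 chr19:2456960-2457209 (minus strand).
TMPO: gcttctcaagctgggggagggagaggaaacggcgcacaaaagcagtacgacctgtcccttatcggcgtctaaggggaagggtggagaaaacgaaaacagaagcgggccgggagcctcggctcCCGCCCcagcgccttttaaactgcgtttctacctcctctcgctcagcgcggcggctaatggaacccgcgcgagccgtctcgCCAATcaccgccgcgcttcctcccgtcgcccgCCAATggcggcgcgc
LMNB1: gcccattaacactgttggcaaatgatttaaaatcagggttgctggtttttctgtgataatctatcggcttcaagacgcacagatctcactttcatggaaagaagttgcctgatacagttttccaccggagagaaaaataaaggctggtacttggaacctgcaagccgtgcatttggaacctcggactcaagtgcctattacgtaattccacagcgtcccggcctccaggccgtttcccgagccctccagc
LMNB2: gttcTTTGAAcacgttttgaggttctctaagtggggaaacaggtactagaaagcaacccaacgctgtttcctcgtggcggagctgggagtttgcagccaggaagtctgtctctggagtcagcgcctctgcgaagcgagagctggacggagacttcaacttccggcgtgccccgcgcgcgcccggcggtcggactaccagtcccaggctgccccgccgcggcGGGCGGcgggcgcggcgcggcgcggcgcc

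The search covered windows from 250 bases before to 50 bases after the start on both strands, and all 10 members had one. The CCAAT box, searched as the letters CCAAT, was found in 34.6% of all 35116 windows and in 4 members, with 2 copies in TMPO at positions -47 and -15 from the start. The GC box, searched as GGGCGG, was in 45.0% of all windows and in 6 members, TMPO and LMNB2 included. The CHR element, searched as TTTGAA, was in 15.2% of all windows, and among the members it was found in LMNB2 alone, at position -246 from the start. The E2F motif TTTCCCGC was in 1.6% of all windows and in 2 members, LMNA and LEMD3. The other E2F motif, TTTGGCGC, was in 0.7% of all windows and in no member. LMNB1 held none of these letters in its window. The matches are descriptions of sequence, and no motif was common to the 3 genes that rose. The 6-base word GCAACC was looked up in 3′ UTRs because earlier results of these data had pointed to it. Among 12385 tested genes whose 3′ UTR reached 50 bases, it was present in 39.3% of those called higher, 19.8% of those called lower and 22.5% of those not called, and among the members in TMPO alone (1 of 10). Since the word came from these same data, its larger share among genes called higher is not independent support for a link. The 3′ UTR lengths were not matched between these groups. LMNB1 and LMNB2 rose without it, and its part in the rise of TMPO was not tested.

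LBR (ENSG00000143815.14, chr1:225401502-225428925, minus strand) encodes the lamin B receptor, which tethers heterochromatin to the inner nuclear membrane and carries a sterol reductase domain. Its level was 199.2 and 146.6 CPM in control and 172.6 and 127.9 CPM in knockdown. The groups overlapped, with a wide spacing of replicates in both of them and replicate 1 the higher library in each. The log2 fold change was -0.20 ± 0.18 (SE, 95% interval from -0.61 to 0.20, adjusted p = 0.53, edgeR). The study reported no change of LBR transcript or protein after TOP2B depletion, the protein by western blot. With LBR varying by 0.44 and 0.43 on the log2 scale between replicate 1 and replicate 2 within control and knockdown, its interval was the widest of the 10 genes. The fit with the replicate number as a block, given below, called LBR lower. The other sterol reductases, TM7SF2 and DHCR7, were not called, and DHCR7 had the larger log2 fold change of 0.20 (adjusted p = 0.553).

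The remaining LEM domain genes did not rise with TMPO. EMD (ENSG00000102119.10, chrX:154379273-154381574, plus strand) encodes emerin, whose loss causes a muscular dystrophy. Its level was 85.5 and 96.3 CPM in control and 83.9 and 91.4 CPM in knockdown, with a log2 fold change of -0.05 and a 95% interval from -0.33 to 0.22. LEMD2 (ENSG00000161904.11, chr6:33771202-33789130, minus strand) encodes a membrane protein that takes part in closing the nuclear envelope after mitosis. Its level was 93.8 and 83.0 CPM in control and 79.5 and 65.2 CPM in knockdown, and although the groups did not overlap the log2 fold change of -0.29 was not called (95% interval from -0.59 to 0.01, adjusted p = 0.211, edgeR). LEMD3 (ENSG00000174106.2, chr12:65169583-65248355, plus strand) encodes MAN1, which binds SMAD proteins and restrains TGF-beta signalling. Its level was 58.7 and 47.2 CPM in control and 65.9 and 51.1 CPM in knockdown, and the groups overlapped (log2 fold change 0.14, 95% interval from -0.21 to 0.50).

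BANF1 (ENSG00000175334.7, chr11:66002228-66004149, plus strand) encodes BAF, a small DNA-binding protein that all LEM domains bind. Its level was 154.7 and 189.9 CPM in control and 166.8 and 204.8 CPM in knockdown. The groups overlapped, and replicate 2 was the higher library in each (log2 fold change 0.11, 95% interval from -0.23 to 0.45, adjusted p = 0.705, edgeR). ZMPSTE24 (ENSG00000084073.8, chr1:40258041-40294180, plus strand) encodes the protease that cleaves prelamin A and removes its farnesyl anchor. Its level was 136.7 and 108.0 CPM in control and 100.4 and 86.1 CPM in knockdown. Both knockdown libraries lay below both control libraries, by at least 0.11 on the log2 CPM scale. The log2 fold change of -0.39 ± 0.15 (SE) had a 95% interval from -0.72 to -0.07 before correction, and an adjusted p of 0.121 (edgeR), so that it was not called.

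**Figure D3:**
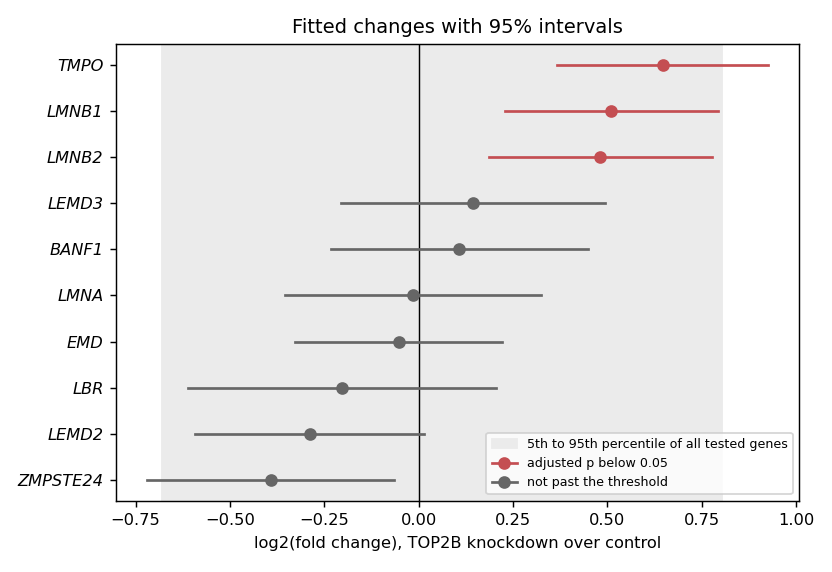
Fitted log2 fold change of each gene, knockdown over control (horizontal axis), as points with 95% intervals, coloured by whether the adjusted p was below 0.05, over a grey band from -0.68 to 0.80 that holds the 5th to 95th percentile of all tested genes. TMPO, LMNB1 and LMNB2 lie to the right of 0 with intervals that leave it out, and all 10 points lie inside the band.

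For 9 of the 10 genes, replicate 1 lay on the same side of replicate 2 in both groups, as it did for 76% of all tested genes. LBR, ZMPSTE24, LEMD3, LEMD2 and LMNB1 were higher in replicate 1 of both conditions, and BANF1, EMD, LMNA and LMNB2 were higher in replicate 2 of both. For BANF1 the difference between replicates was -0.30 on the log2 CPM scale in control and in knockdown alike. TMPO was the exception, with differences of 0.06 and -0.03, the smallest of the 10 genes in both groups. The 4 possible pairs of a knockdown and a control library differed by 0.60 to 0.69 for TMPO, by 0.36 to 0.67 for LMNB1 and by 0.37 to 0.60 for LMNB2 on this scale. For LBR the same 4 pairs ran from -0.64 to 0.24, and those of equal replicate number differed by -0.21 and -0.2.

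**Figure D4:**
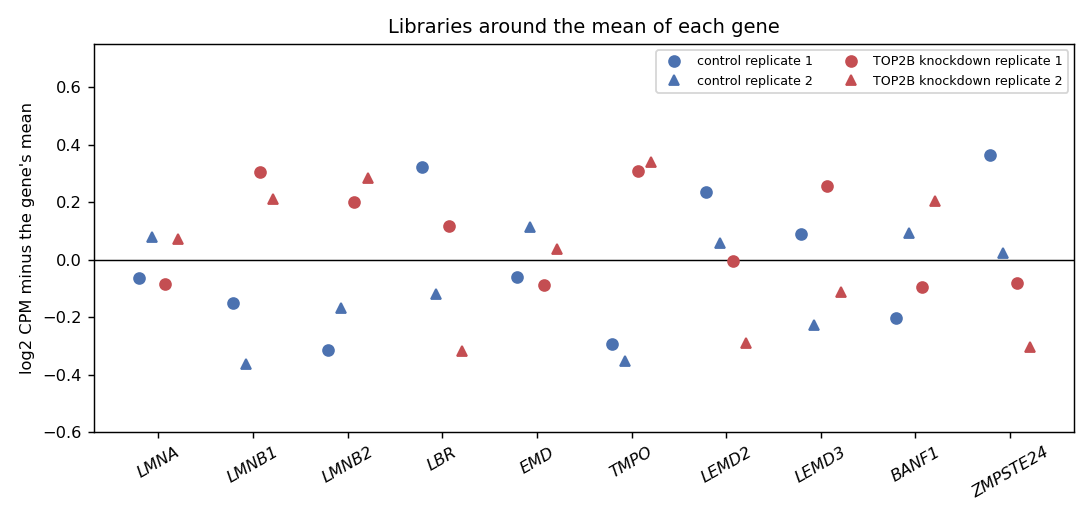
Log2 CPM of each library minus the mean of the gene over the 4 libraries (vertical axis), for each of the 10 genes, with colours for the condition and marker shapes for the replicate. TMPO, LMNB1, LMNB2, LEMD2 and ZMPSTE24 separate by colour, with LEMD2 and ZMPSTE24 lower in knockdown. LMNA, LBR, EMD, LEMD3 and BANF1 separate by marker shape, with differences between replicates of 0.43 and 0.44 for LBR.

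The genes were also compared by their level per kilobase of exon in control cells. BANF1 at 115.2 ± 16.7 and LMNA at 100.9 ± 6.91 CPM per kilobase (SD, n = 2) were the most abundant, and they did not differ beyond their spread. EMD at 45.6 ± 3.83 and LMNB2 at 42.3 ± 2.98 CPM per kilobase followed, again within their spread. ZMPSTE24 stood at 30.4 ± 5.05, LBR at 30.3 ± 6.51 and LMNB1 at 25.1 ± 2.64 CPM per kilobase, whose ranges overlapped. TMPO at 20.7 ± 0.604, LEMD2 at 13.0 ± 1.12 and LEMD3 at 9.49 ± 1.46 CPM per kilobase were the least abundant. In knockdown cells LMNB2 stood at 59.0 ± 2.42, LMNB1 at 35.7 ± 1.65 and TMPO at 32.4 ± 0.526 CPM per kilobase, above LBR at 26.3 ± 5.53. The order depends on the length used. Over canonical transcripts LMNA at 258.5 ± 17.7 stood before BANF1 at 235.7 ± 34.1 CPM per kilobase in control, though within their spread. TMPO at 42.5 ± 1.24 did not differ from ZMPSTE24 at 41.1 ± 6.82 beyond their spread. It stood above LMNB1 at 31.5 ± 3.32 CPM per kilobase and was no longer among the lowest genes.

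Other genes of the lamina were taken from lists written from general knowledge, but with earlier results of these data known. They held 32 genes, of which 28 were tested. Of these, 4 were called higher and 0 lower, against 6.66% and 4.18% of all tested genes. Their median log2 fold change was 0.12 against -0.0029 over all tested genes. With any 1 library left out, the count called higher was 1 or 2. At an unadjusted p below 0.05, NARF was the 1 gene of the lists on the lower side (chosen after its values were seen, log2 fold change -0.31), and DESeq2's Wald test called 0 of them lower too. The fit with the replicate number as a block differed here as well. The 4 genes of lamin processing, which farnesylate, cleave and methylate prelamins, included no called gene, also at an unadjusted p below 0.05, and the one with the largest log2 fold change was the CAAX protease RCE1 at -0.28 (adjusted p = 0.24, edgeR). Of 8 tested genes among other inner nuclear membrane and lamina-associated proteins, 1 rose, TMEM201, which encodes the SAMP1 membrane protein, from 31.6 to 47.5 CPM (log2 fold change 0.59, adjusted p = 0.0353). Of 14 partners and kinases 3 rose. SMAD3, the TGF-beta effector that MAN1 binds, had a mean of 171.7 CPM in control and 270.3 CPM in knockdown (log2 fold change 0.65, adjusted p = 0.0135). VRK1, the kinase that releases BAF from DNA, rose from 25.55 to 35.97 CPM (adjusted p = 0.0296), and CDK1, which phosphorylates lamins at mitotic entry, from 60.2 to 80.0 CPM (adjusted p = 0.0497).

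LMNB1 and TMPO are transcribed more in proliferating cells, and proliferation genes moved in the same libraries. The list of 24 such genes, all tested, was written with earlier results of these data known. Of them, 11 rose and 0 fell, against 6.66% and 4.18% of all tested genes. All 24 had positive log2 fold changes, from 0.04 to 1.11 with a median of 0.45. Their summed level was 3566 to 3775 CPM in the control libraries and 4846 to 5173 CPM in the knockdown libraries. The 11 genes that rose were PCNA, MCM2, MCM3, MCM4, MCM5, MCM6, MCM7, RRM2, TYMS, E2F1 and CCNE2, and their log2 fold changes ranged from RRM2 at 0.52 to CCNE2 at 1.11. Not called were MKI67, CDC6, CCNA2, TOP2A and the mitotic genes CCNB1, CCNB2, CDC20, PLK1, AURKA, AURKB, BUB1, BIRC5 and CENPF. Their log2 fold changes ranged from AURKA at 0.04 to MKI67 at 0.58, and they are named after their values were seen. The study reported unaltered cell cycle progression after TOP2B depletion, by propidium iodide staining. The part of the proliferation genes in the rise of TMPO, LMNB1 and LMNB2 was not tested.

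**Figure D5:**
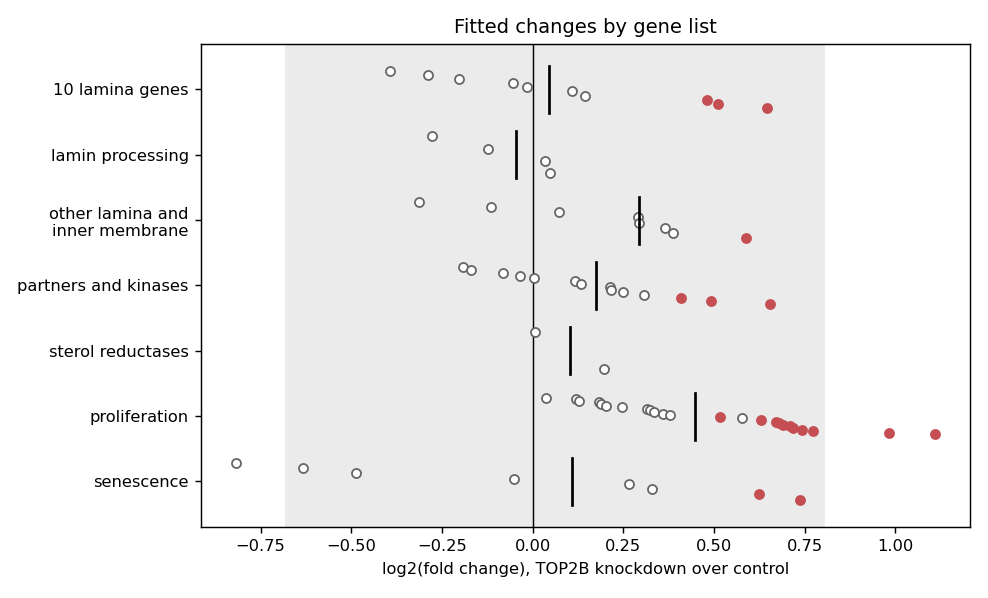
Fitted log2 fold change, knockdown over control (horizontal axis), of each tested gene in the lists (vertical axis, 1 row a list), over a grey band from -0.68 to 0.80 that holds the 5th to 95th percentile of all tested genes. The 24 proliferation genes lie to the right of 0, with a median of 0.45, while the 10 lamina genes lie on both sides of it.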

How the data were processed

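The RNA-seq data comprised 4 libraries, 2 from control and 2 from TOP2B knockdown cells. Per the labels and the study's methods, the authors prepared libraries with the TruSeq RNA LT kit, sequenced single-end 65-bp reads, checked them with FastQC 0.11.6, aligned them to GRCh38 with STAR 2.5.4a and counted reads per gene of Gencode v24 during mapping. The deposited values are raw counts per gene. Each of the 4 columns occurs again with identical values, and these 4 second copies were not used. A tag in the column headers reads stranded and paired-end, unlike the methods, and while the methods state unstranded signal output for STAR, the strand setting of the gene counts is not given in the sources used here. Of the 60725 genes, 93.14% carried a symbol.

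A gene was tested if 2 or more libraries held 10 or more counts, in R 4.3.3 with edgeR 4.0.16 (TMM, glmQLFit and glmQLFTest, no covariate besides the condition, Benjamini-Hochberg adjustment over all tested genes, called at an adjusted p below 0.05). The study names no test for these data. TMM factors scaled the CPM values, with a prior count of 2 on the log2 scale. P-values measure the spread between these libraries only. The ratios to LMNA were compared by exact two-sided permutation over libraries. Positions and exon lengths came from GENCODE v44 and promoter windows from RefSeq (GRCh38.p14), where each gene was given the window nearest to its annotated start. The scripts were tested on simulated data. Alternatives were DESeq2 size factors, library size alone, no filter, a mean of at least 100 counts, the Wald test of DESeq2 1.42.0, a replicate block and leaving out each library. The members and lists were chosen with earlier results of these data known. All members are named, with TOP2B, the called genes of the other lists or, where none was called, the gene with the largest log2 fold change. Genes named beyond that are marked in the text, and 1 gene of the senescence list is not reported here.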

Additional observations from a re-analysis of the deposited data

How the results depend on the processing

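The directions of TMPO, LMNB1 and LMNB2 were the same under every alternative run, with log2 fold changes of 0.62 to 0.68, 0.41 to 0.62 and 0.41 to 0.56 when each library was left out in turn. In these fits the lone library is assumed to vary like those of the other group. The number of members called higher then ranged from 0 (without control replicate 2) to 2, against 3 in all libraries, and that of the 28 other lamina genes from 1 to 2, against 4. The log2 fold change changed sign when libraries were left out for LMNA (-0.087 to 0.066), LBR (-0.43 to 0.034), EMD (-0.138 to 0.042), LEMD3 (-0.047 to 0.325) and BANF1 (-0.039 to 0.27), none of which was called. LMNB2 lost its call with DESeq2 size factors in edgeR (0.46, adjusted p = 0.0598).

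The replicate numbers come from the labels, and nothing in the labels says that equal numbers share a batch or a day. With the replicate number as a block, the count of members called lower was 3 (LBR, LEMD2 and ZMPSTE24, adjusted p of 0.00213, 0.000438 and 2.61e-05), 13 other lamina genes were called higher and 3 lower, and 21 proliferation genes were called higher, while over all genes 3440 were called higher and 3346 lower. The deviations of control replicate 1 and knockdown replicate 1 from their group means correlated across 15356 genes at r = 0.479, which are not independent points. Without the filter on low counts 1358 genes were called higher and 985 lower. The cause of these differences was not tested. For the members not called, the 95% intervals give the range of changes compatible with 2 libraries per group. For ZMPSTE24 this range, before correction, was -0.719 to -0.065.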

Other observations

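Because loss of LMNB1 and LBR is known from senescent cells, genes linked to senescence were also read. HMGB2, a chromatin protein that is lost in senescent cells, rose from 142.4 to 237.4 CPM (log2 fold change 0.74, adjusted p = 0.00604, edgeR). CDKN1A, which encodes the cell cycle inhibitor p21, had 464.5 and 664.3 CPM in control and 303.5 and 425.0 CPM in knockdown and was not called (log2 fold change -0.63, adjusted p = 0.0863). CDKN2A, another gene of this list, had 78.8 and 81.7 CPM in control and 90.5 and 102.3 CPM in knockdown. It was not called either (log2 fold change 0.265, adjusted p = 0.197, edgeR). CDKN2B, with 16.53 and 17.11 CPM in control and 12.36 and 11.65 CPM in knockdown, was also not called (log2 fold change -0.486, adjusted p = 0.059, edgeR). Of the 8 genes of the list that were tested, 2 were called higher and 0 lower, against 6.66% and 4.18% of all tested genes. Among these 8 genes, 4 had positive and 4 had negative log2 fold changes. CDKN1A, CDKN2A and CDKN2B are named after their values were seen.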
